A study of Mus musculus with 18 samples.

Results

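The Ighv genes are the variable segments of the antibody heavy chain, and here they were taken as every entry of the deposited gene table whose symbol begins with Ighv. There were 127 such entries among 33977 genes, under 126 names because Ighv1-13 occurs as a pair of entries. They belonged to 15 numbered families and lay on chromosome 12 between positions 113572927 and 116010093 of the mouse GRCm38 build, a stretch of 2.44 Mb. All 127 identifiers and coordinates matched GENCODE M21, which annotates 21 of the entries as pseudogenes and 106 as other variable genes. GENCODE M21 lists 185 Ighv genes, and the other 58 were not analysed here.

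A developing B cell joins 1 variable segment to a diversity and a joining segment, and the joined exon is spliced to a constant gene such as Ighm or Igha. Each B cell clone therefore transcribes mainly the segment it has joined, and the read counts of the segments are a rough census of the antibody-making cells of a tissue. In the colon most of this RNA comes from plasma cells of the mucosa that secrete IgA, which the receptor encoded by Pigr carries across the epithelium, while follicles hold B cells that still carry IgM and IgD.

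Colon RNA of ICR mice, an outbred stock, was sequenced in 18 libraries after 44 days of gavage or saline. The treatments were saline (title code NC), a compound Suanzaoren capsule, which is a jujube kernel preparation (FFZR), and Jinhua Hecha, a fermented green tea (JHHCG). The titles also carry a C or an X without explaining it, here called set C and set X, which makes 6 groups of 3: NCC, FFZRC, JHHCGC, NCX, FFZRX and JHHCGX. The design text counts 3 mice for each treatment, there were 6 libraries for each, and nothing ties libraries to mice, so every spread below is a spread between libraries and may be technical in part. The labels give ICR as the genotype of every group and no age.

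Many segments have a close relative in sequence, while members of different families differ more. The printed sequences are the last 150 bases of the reference transcript of 6 segments, from GENCODE M21 on GRCm38, all on the minus strand of chromosome 12, read 5′ to 3′. Ighv3-6 (chr12:114288152-114288582) was the most abundant segment. Ighv1-39 (chr12:114914599-114915032) had the smallest p of all segments in both comparisons with saline in set X. Ighv1-26 (chr12:114788372-114788805) took the largest share of any library, and Ighv1-18 (chr12:114682632-114683065) is its nearest relative. Ighv1-14 (chr12:114646572-114647056) is a pseudogene in the annotation that headed a library, and Ighv9-3 (chr12:114140692-114141122) was at 0 in 5 libraries. Capitals mark the codons for tyrosine, tyrosine and cysteine, or in Ighv9-3 tyrosine, phenylalanine and cysteine, near the end of the third framework region, where the segment is joined.
Ighv3-6: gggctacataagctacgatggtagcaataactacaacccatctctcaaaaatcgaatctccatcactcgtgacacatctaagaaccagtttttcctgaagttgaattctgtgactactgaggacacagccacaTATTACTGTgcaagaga
Ighv1-39: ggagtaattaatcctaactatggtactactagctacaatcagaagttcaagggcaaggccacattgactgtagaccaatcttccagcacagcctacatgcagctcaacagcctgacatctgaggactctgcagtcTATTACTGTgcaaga
Ighv1-26: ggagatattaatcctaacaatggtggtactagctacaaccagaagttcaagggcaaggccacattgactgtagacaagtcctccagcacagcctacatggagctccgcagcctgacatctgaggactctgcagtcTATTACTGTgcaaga
Ighv1-18: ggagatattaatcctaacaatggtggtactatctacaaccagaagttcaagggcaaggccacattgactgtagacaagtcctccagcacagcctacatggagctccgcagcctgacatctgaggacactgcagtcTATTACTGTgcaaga
Ighv1-14: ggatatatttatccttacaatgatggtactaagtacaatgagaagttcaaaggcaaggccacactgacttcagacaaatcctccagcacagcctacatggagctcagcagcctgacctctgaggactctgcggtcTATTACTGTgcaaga
Ighv9-3: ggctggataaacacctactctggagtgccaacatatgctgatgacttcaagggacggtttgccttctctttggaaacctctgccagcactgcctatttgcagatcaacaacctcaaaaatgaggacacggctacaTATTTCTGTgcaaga
Either TATTACTGT or TATTTCTGT, searched on the sense strand alone, occurred in 94 of the 127 segments and in 79 of the 106 that are not pseudogenes. Ighv1-26 and Ighv1-18 were identical at 96.9% of their aligned bases, and Ighv1-39 and Ighv1-26 at 92.9%, whereas Ighv3-6 and Ighv1-26 shared 60.3%. Over all 127 entries the identity with the nearest other segment had a median of 94.8%, and 22 segments had a neighbour at 97% or more. Values of single segments are therefore uncertain, the more so because nothing used here states how reads that match several segments were counted. The reference is not an ICR genome, and the effect of strain differences on the assignment of reads was not tested.

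The libraries held 59206980 to 76830278 gene counts. The epithelial marker Epcam stood at 1129 to 2298 CPM (counts of a gene scaled to the same total in every library), and Muc2, the mucin of goblet cells, at 28.2 to 3470 CPM. A set of 6 libraries (NCC_17, FFZRC_24, JHHCGC_48, NCX_134, NCX_147 and JHHCGX_256) had 12.2 to 24.9% of counts on mitochondrial genes against 5.48 to 11.1% in the other 12. They also had 28.2 to 300.2 CPM of Muc2 against 376 to 3470 CPM. Myh11, a smooth muscle gene, stood at 1796 to 7338 CPM in these 6, highest in NCX_147, against 434 to 1940 CPM. A different set of 5 libraries, the 3 of NCC together with NCX_124 and FFZRX_139, held transcripts foreign to colon, with the cartilage collagen Col2a1 at 77.3 to 87.3 CPM. Sftpc, a surfactant gene of the lung, stood at 28.9 to 107 CPM in 11 libraries, namely these 5, the 3 of JHHCGC, FFZRX_238, FFZRX_268 and JHHCGX_129, and at 0 in the other 7. In set C the cartilage transcripts and the saline group cannot be told apart, nor can the absence of Sftpc and the capsule group. In set X all 3 capsule libraries held Sftpc, against 1 of 3 in saline and 1 of 3 in tea.

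The total of all Ighv segments spanned 401-fold between libraries, far more than the depth. The saline libraries of set C held 77.6 CPM (NCC_2), 86.6 CPM (NCC_8) and 5.93 CPM (NCC_17). The capsule libraries of set C held 417 CPM (FFZRC_5), 289.8 CPM (FFZRC_12) and 4.92 CPM (FFZRC_24), and the tea libraries of that set 92.6 CPM (JHHCGC_7), 26.1 CPM (JHHCGC_19) and 6.68 CPM (JHHCGC_48). In every group of set C, 1 library stood at least 3-fold below the others. In set X the saline libraries held 104 CPM (NCX_124), 9.06 CPM (NCX_134) and 1.04 CPM (NCX_147). The capsule libraries held 105 CPM (FFZRX_139), 264 CPM (FFZRX_238) and 39.7 CPM (FFZRX_268), and the tea libraries 31.4 CPM (JHHCGX_129), 271 CPM (JHHCGX_148) and 20.9 CPM (JHHCGX_256). All 6 groups overlapped with one another in this total.

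**Figure D1:**
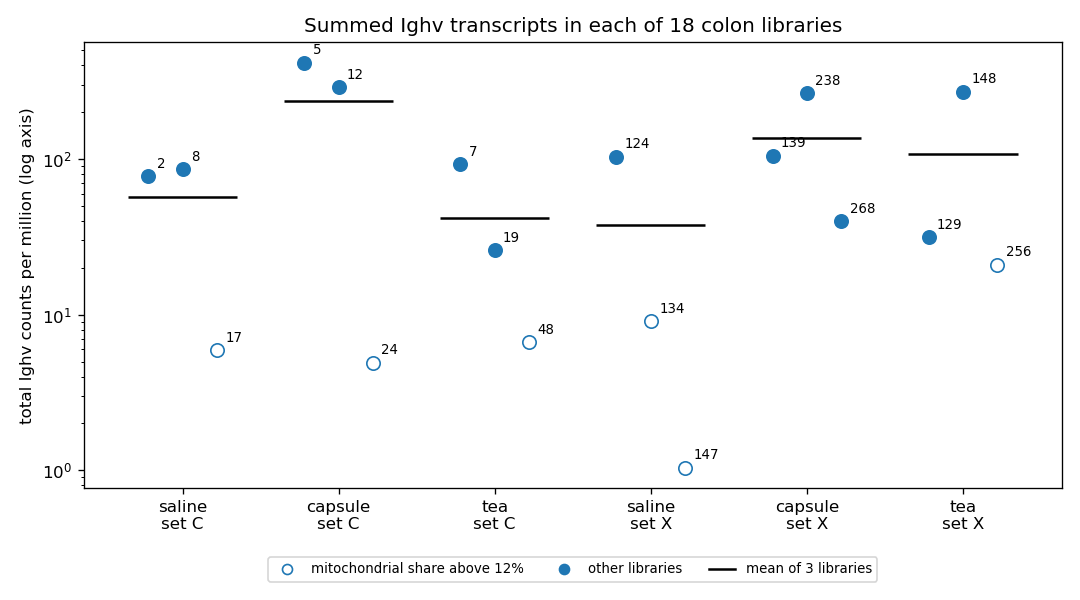
Total Ighv CPM (log axis) in each library, by group; the number beside a point is the library number, bars are means of 3 libraries and open points are the 6 libraries with more than 12% mitochondrial counts. The open points lie at 1.04 to 20.9 CPM, below all 12 filled points at 26.1 to 417 CPM, and every group except capsule in set X holds at least 1 open point.

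The mean totals were 56.7 ± 44.2 CPM (SD, n = 3) in NCC, 237 ± 211 CPM in FFZRC and 41.8 ± 45.1 CPM in JHHCGC. In set X they were 37.9 ± 57.1 CPM in NCX, 136 ± 115 CPM in FFZRX and 108 ± 141 CPM in JHHCGX, each with n = 3. As log2 ratios of means, capsule stood above saline by 2.06 in set C and by 1.85 in set X. The ratio of tea to saline was -0.44 in set C and 1.51 in set X. For tea and capsule it was -2.50 (set C) and -0.34 (set X). The pooled SD of log2 totals within groups was 1.70 to 2.95, and every ratio was smaller than the SD of its own comparison. These comparisons share their saline or capsule libraries.

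The ratios differed in how far they rested on single libraries. With each library left out in turn, capsule against saline in set C stayed between 1.38 and 2.64 and tea against capsule in set C between -3.85 and -1.82. Without NCX_124 the log2 ratio of tea to saline in set X was 4.42 and that of capsule to saline 4.76, while without JHHCGX_148 the former was -0.54. Without FFZRX_238 the ratio of capsule to saline in set X was 0.93. In set C the ratio of tea to saline was -1.79 without JHHCGC_7 and 0.07 without JHHCGC_48. Over the 12 libraries with lower mitochondrial shares the log2 ratio of capsule to saline was 2.11 in set C and 0.40 in set X, and that of tea to saline -0.47 and 0.54. Both set X values rest on NCX_124 as the only saline library left. The part that the mitochondrial share, the low goblet cell marker or the high smooth muscle marker played in the low totals was not tested.

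The remaining antibody genes stood high and low in the same libraries. Igha, the constant gene of IgA, ran from 8.97 CPM in NCX_147 to 3262 CPM in FFZRC_5, the libraries with the lowest and highest Ighv totals. Jchain, which links IgA into dimers, ran from 4.12 CPM in NCX_147 to 707 CPM in FFZRC_12, and Igkc, the kappa light chain constant gene, from 3.51 CPM to 1805 CPM in the same libraries as Igha. Expressed against the summed heavy constant genes, Ighv counts were 3.63 to 12.8% over the 18 libraries, a 3.53-fold range beside the 401-fold range of the total. By group this percentage was 6.74 ± 0.94 in NCC, 9.33 ± 1.86 in FFZRC and 4.50 ± 1.46 in JHHCGC (SD, n = 3). In set X it was 4.83 ± 0.80 in NCX, 10.7 ± 3.12 in FFZRX and 8.31 ± 3.10 in JHHCGX. It compares counts, not levels per length. This percentage was not among the planned results and was not recomputed under other settings. In each set all 3 capsule libraries lay above all 3 saline libraries, at 8.26 to 11.5% against 5.73 to 7.61% in set C and 7.14 to 12.8% against 4.12 to 5.70% in set X. All 3 tea libraries of set X, at 6.12 to 11.9%, also lay above the saline libraries of that set, while in set C tea (3.63 to 6.18%) overlapped with saline.

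Igha took 22.6 to 96.8% of the heavy constant counts and was below 50% in JHHCGC_19 (47.7%), NCX_134 (22.6%), NCX_147 (49.3%) and JHHCGX_129 (35.1%). Ighm, the constant gene of IgM, stood at 212 CPM in JHHCGC_19, 84.4 CPM in NCX_134 and 143 CPM in JHHCGX_129, and at 8.37 CPM in NCX_147. All 12 markers of B cells had counts in 17 libraries and 11 of 12 in NCX_147, which lacked Fcrla. Their sum was 50.7 to 241 CPM in NCC, 22.6 to 662 CPM in FFZRC, 14.1 to 532 CPM in JHHCGC, 3.75 to 313 CPM in NCX, 32.8 to 492 CPM in FFZRX and 8.50 to 347 CPM in JHHCGX. Of 12 plasma cell genes 10 to 12 had counts, Tnfrsf17 being at 0 in 6 libraries, Mzb1 in NCX_147 and Derl3 in JHHCGC_48. The sum of the plasma cell genes was 208 to 418 CPM in the 6 libraries of high mitochondrial share and 491 to 1342 CPM in the other 12. In NCX_147 this sum was 208 CPM although Jchain stood at 4.12 CPM and Mzb1 and Tnfrsf17 at 0. It came there almost wholly from the other genes of the list, so it is no scale of antibody RNA. In bulk tissue, fewer antibody-making cells and less antibody RNA per cell cannot be told apart.

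The number of segments with at least 1 count followed the Ighv counts of the library. NCX_147, with 73 Ighv counts, showed 12 segments, and FFZRC_5, with 27899, showed 107. By group the numbers were 87, 90 and 43 in NCC, 107, 104 and 39 in FFZRC, 94, 74 and 47 in JHHCGC, 80, 39 and 12 in NCX, 81, 101 and 77 in FFZRX, and 69, 84 and 53 in JHHCGX, in the library order used above. The median was 78.5 segments, and 60.5 at a minimum of 10 counts. When each library was thinned to 73 Ighv counts, the expected number ran from 12 in NCX_147 to 39.2 in FFZRX_238 with a median of 34.1. At that equal number the 6 libraries of high mitochondrial share gave 12 to 30.9 segments and the other 12 gave 31.3 to 39.2.

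JHHCGX_148 departed from the trend with depth. It had 19077 Ighv counts, more than FFZRX_238 with 16248, but 84 segments against 101. Thinned to 73 Ighv counts it gave 34.0 segments, against 39.2 in FFZRX_238 and 34.1 in FFZRX_139. At that equal number it lay within the range of the other libraries. In all, 4 segments (Ighv3-6, Ighv2-2, Ighv1-82 and Ighv1-5) had counts in all 18 libraries and 13 had counts in a single library. Of the mean CPM, 18 segments made up 50% and 62 made up 90%.

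The most abundant segment took 7.14 to 20.5% of Ighv counts in 17 libraries and 33.4% in JHHCGX_256, with a median of 9.02% over all 18. The shares were 9.89% (NCC_2), 8.60% (NCC_8) and 15.1% (NCC_17) for saline in set C, 8.44% (FFZRC_5), 7.14% (FFZRC_12) and 10.1% (FFZRC_24) for capsule, and 8.13% (JHHCGC_7), 9.03% (JHHCGC_19) and 13.98% (JHHCGC_48) for tea. In set X they were 12.2% (NCX_124), 10.9% (NCX_134) and 20.5% (NCX_147) for saline, 8.12% (FFZRX_139), 7.50% (FFZRX_238) and 9.004% (FFZRX_268) for capsule, and 8.98% (JHHCGX_129), 8.55% (JHHCGX_148) and 33.4% (JHHCGX_256) for tea. All 3 saline libraries of set X lay above all 3 capsule libraries of that set, and the other pairs of groups within a set overlapped. The 20.5% of NCX_147 was 15 of 73 counts, with a 95% Wilson interval of 12.9 to 31.2%, which, like every interval here, covers counting error only. The intervals of NCX_134 (8.66 to 13.7%) and FFZRX_268 (7.95 to 10.2%), the nearest libraries of these groups, overlapped, so their order is uncertain. Overlap of intervals is no test of groups, and the difference between saline and capsule of set X was not tested.

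**Figure D2:**
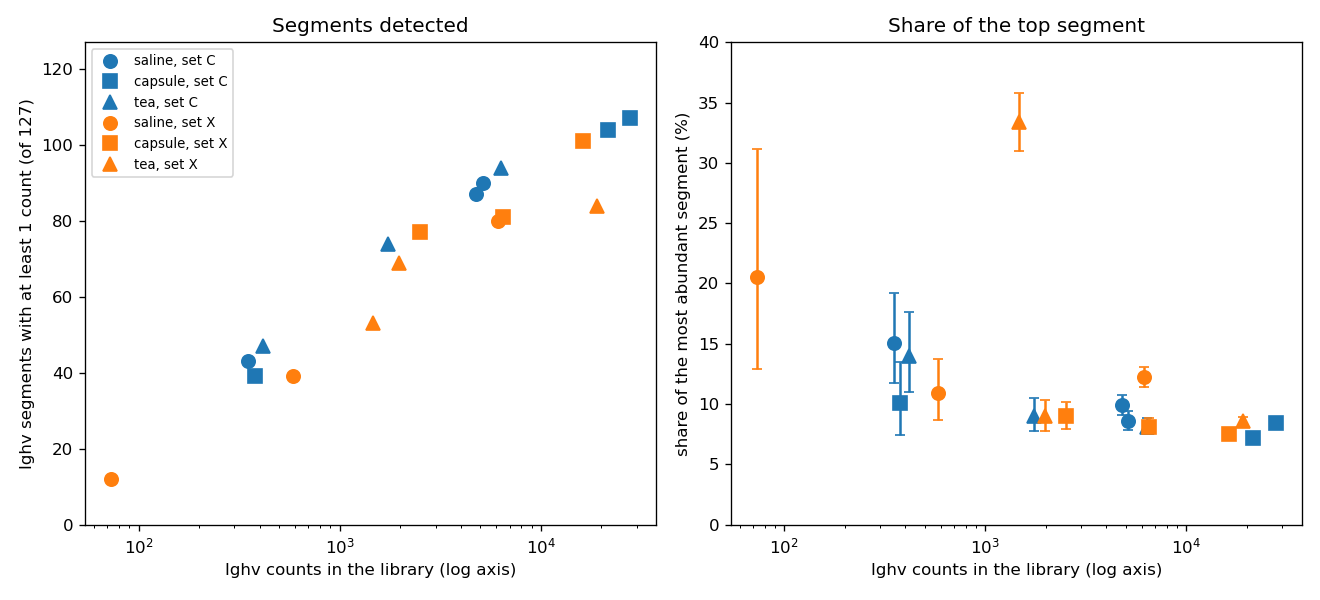
Number of Ighv segments with at least 1 count (left) and share of the most abundant segment in percent with its 95% Wilson interval (right) against the Ighv counts of each library on a log axis; shapes are treatments and colours are sets. Segment number climbs from 12 at 73 counts to 107 at 27899 counts, JHHCGX_148 lies below its neighbours at 84, and JHHCGX_256 stands alone at 33.4%.

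Ighv3-6 was the most abundant segment by mean level per length, at 17.6 FPKM (the deposited unit, scaled to transcript length and library size), followed by Ighv1-39 at 10.1 FPKM and Ighv1-26 at 8.11 FPKM. It headed 6 libraries (NCC_2, NCC_8, JHHCGC_48, NCX_124, FFZRX_238 and JHHCGX_129), which came from every group but FFZRC, and was among the 5 most abundant in 17 of 18. Its share was lowest in FFZRX_268 at 2.71% and highest in JHHCGC_48 at 13.98%. In level it stood at 7.68, 7.44 and 0.30 CPM in NCC, 19.9, 12.9 and 0.44 CPM in FFZRC, and 7.12, 1.97 and 0.93 CPM in JHHCGC. In set X it stood at 12.7, 0.46 and 0.09 CPM in NCX, 5.86, 19.8 and 1.08 CPM in FFZRX, and 2.82, 15.5 and 1.06 CPM in JHHCGX. Every pair of groups overlapped, as the totals did.

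The other libraries were headed by 9 further segments. Ighv1-81 led FFZRC_24, FFZRX_139 and FFZRX_268, and Ighv1-82 led JHHCGC_19 and NCX_134. Ighv2-9 led NCC_17, Ighv1-39 led FFZRC_5, Ighv5-4 led FFZRC_12, Ighv2-2 led JHHCGC_7, Ighv6-6 led NCX_147, Ighv1-14 led JHHCGX_148 and Ighv1-26 led JHHCGX_256. Measured by FPKM the leading segment was the same in 17 libraries, the exception being JHHCGX_148, where Ighv7-3 with 55.6 FPKM stood just above Ighv1-14 with 55.1 FPKM. The 10 segments of highest mean CPM held 33.5% of Ighv counts, as a mean of the shares in the single libraries. They included Ighv5-17 and Ighv1-54 beside 8 of those that headed a library. Ighv1-54 had a mean of 2.80 CPM but a median of 0.13 CPM, with 18.8 CPM in FFZRC_5, 13.8 CPM in FFZRC_12 and 10.7 CPM in FFZRX_238. Ighv5-17 was highest in JHHCGX_148 at 18.2 CPM and at 0 in FFZRC_24 and NCX_147.

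**Figure D3:**
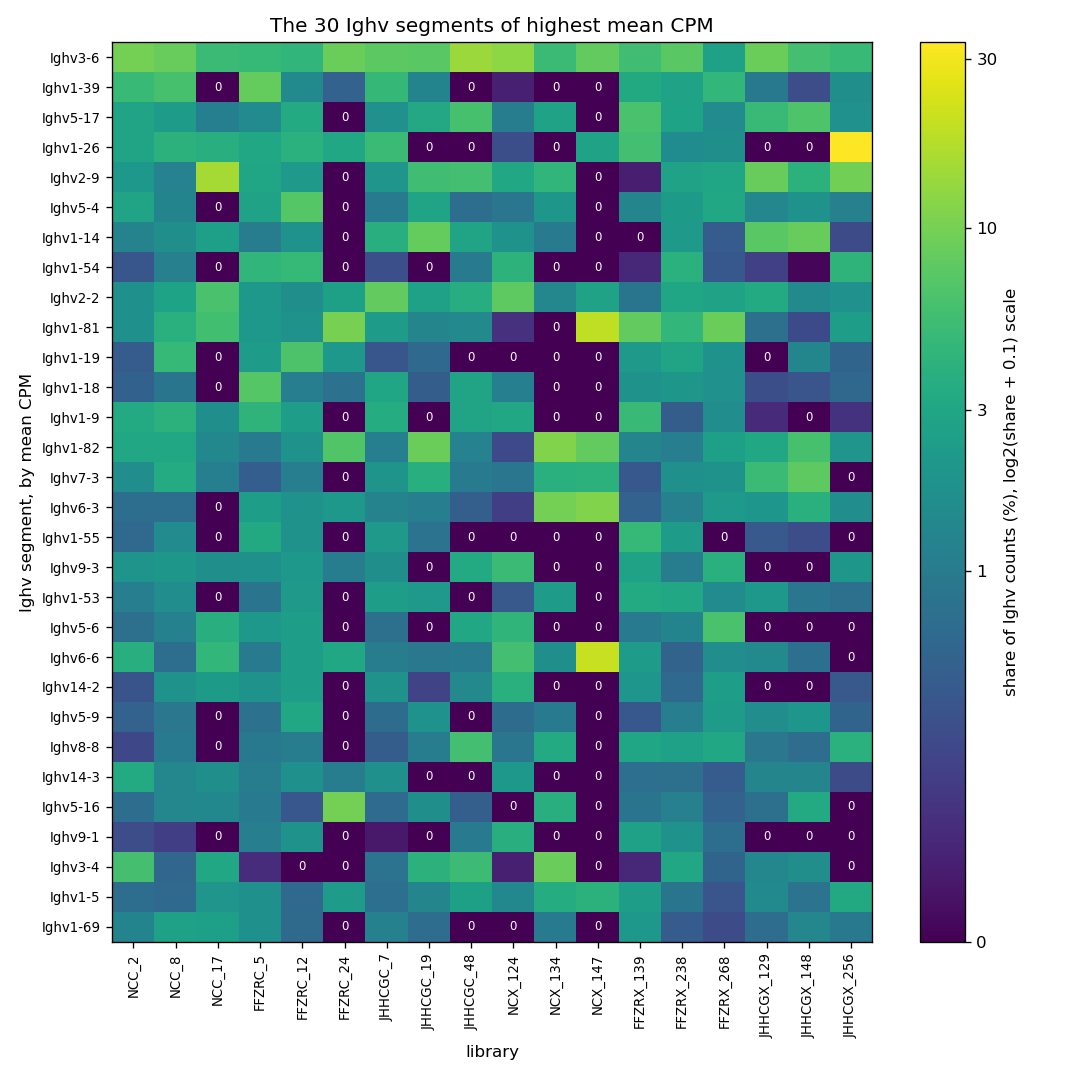
Share of Ighv counts (colour, percent on a log2(share + 0.1) scale) of the 30 segments of highest mean CPM in each of the 18 libraries; 0 marks a segment with no count. Ighv3-6 in the top line has counts in every library, Ighv1-26 reaches 33.4% in JHHCGX_256 and has no count in JHHCGC_19, JHHCGC_48, NCX_134, JHHCGX_129 and JHHCGX_148.

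By family, the 68 entries of family 1 took 27.5 to 65.3% of Ighv counts with a median of 44.5%. Family 3, with 7 entries including Ighv3-6, had a median of 11.1%, family 5 with 11 entries 10.4% and family 2 with 9 entries 9.62%. Family 6, with 3 entries, had a median of 3.69% and reached 31.5% in NCX_147. Split by position, the 43 entries nearest the joining segments took a median of 44.7%, the 42 in the middle 27.9% and the 42 farthest away 27.8%. Pseudogenes took 0 to 5.51% of Ighv counts in 15 libraries and 13.1% in JHHCGC_19, 10.1% in JHHCGX_129 and 12.6% in JHHCGX_148, most of it from Ighv1-14.

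JHHCGX_256 was the library most taken up by 1 segment, and its light chains showed the same. Ighv1-26 held 488 of its 1463 Ighv counts, 33.4% with a 95% Wilson interval of 31.0 to 35.8%, and Ighv2-9 came next at 9.64%. Among the kappa variable segments of that library, Igkv12-44 held 1340 of 3435 counts, 39.0% with an interval of 37.4 to 40.7%, while the leading kappa segment of the other 17 libraries held 6.91 to 14.3%. The inverse Simpson index of the Ighv shares, the number of equally abundant segments that would give the same concentration, was 7.53 in JHHCGX_256 and 8.09 to 40.9 in the other 17. Its B cell marker Ms4a1 was low, at 0.06 CPM, while Igha made up 96.8% of its heavy constant counts. JHHCGX_129 and JHHCGX_148, the other tea libraries of set X, had no count of Ighv1-26.

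Absence of Ighv1-26 was part of a wider pattern in JHHCGX_148. For each library, the mean share of a segment in the other 17 was used to predict its count, and predictions of at least 10 were examined, a threshold chosen after the values were seen. In JHHCGX_148, 100 segments had such a prediction and 25 of them had no count, with Ighv1-26 predicted at 804 counts. The mean weights every library equally, so JHHCGX_256, where Ighv1-26 held 33.4%, raised that prediction strongly. A count of 0 of 19077 allows a share of up to 0.0157%. In FFZRC_5 and FFZRC_12, of similar Ighv counts, 7 of 105 and 7 of 101 predicted segments were at 0, and in FFZRX_238 10 of 102. Libraries with fewer Ighv counts varied widely. The number was 5 of 85 in JHHCGC_7, 7 of 82 in NCC_8, 8 of 81 in NCC_2, 0 of 8 in NCC_17, 2 of 11 in JHHCGC_48 and 9 of 70 in FFZRX_268. It was 11 of 86 in FFZRX_139, 14 of 82 in NCX_124, 13 of 58 in JHHCGX_129 and 13 of 54 in JHHCGC_19. The share was above that of JHHCGX_148 in JHHCGX_256 (14 of 47), NCX_134 (5 of 15) and FFZRC_24 (3 of 9), and NCX_147 had no segment predicted at 10 counts. Of the 25 segments 12 belonged to family 1, 3 to family 2, 3 to family 9, 2 each to families 4, 5 and 11, and 1 to family 14. They were spread along the locus from position 113611187 to 116000461, 13 among the entries nearest the joining segments, 3 in the middle and 9 among the farthest, and 1 was a pseudogene.

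The same 25 segments were scarce in 3 more libraries. They took 0 of 585 Ighv counts in NCX_134, which allows up to 0.513%, then 1.06% of 1982 counts in JHHCGX_129 and 2.93% of 1738 counts in JHHCGC_19. In NCX_147 they took 2 of 73 counts, and in the remaining 13 libraries 14.2 to 40.7%, the highest being JHHCGX_256 with its Ighv1-26. Ighv9-3, printed above, had 494 counts in FFZRC_5, 320 in NCX_124 and 14 in JHHCGC_48 but 0 in all 4 of these libraries. Among libraries with few Ighv counts, FFZRC_24 with 378 had 15.1% and JHHCGC_48 with 415 had 14.2%.

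**Figure D4:**
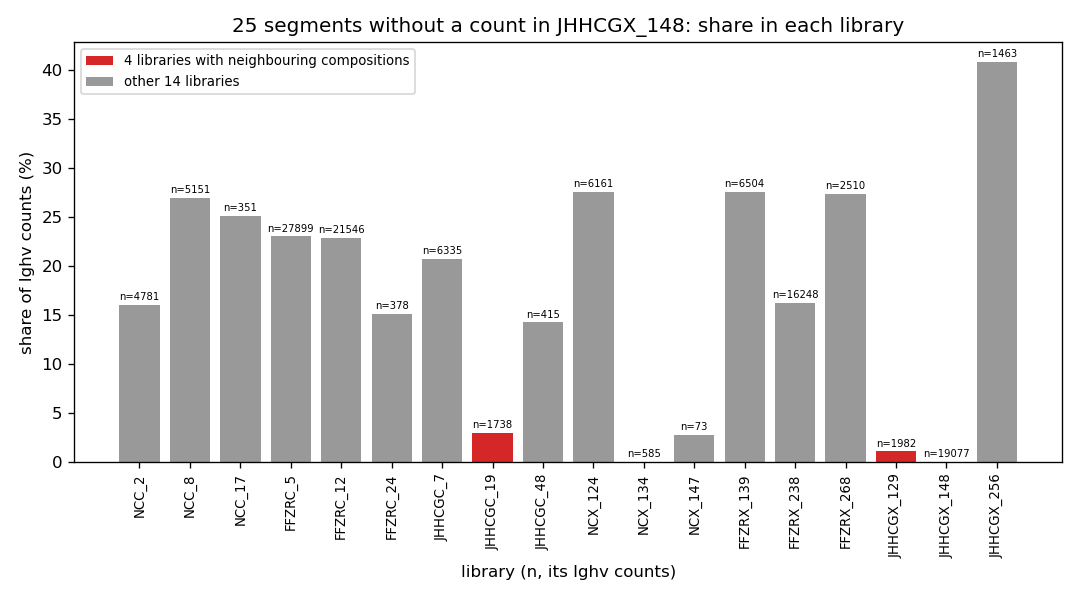
Share of Ighv counts (percent) taken by the 25 segments that had no count in JHHCGX_148 although at least 10 were predicted, by library, with the Ighv counts of each library above its bar. The 4 libraries in red or at 0 (JHHCGC_19, NCX_134, JHHCGX_129, JHHCGX_148) lie at 0 to 2.93%, NCX_147 with 73 counts at 2.74%, and the other 13 at 14.2 to 40.7%.

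Conversely, 16 segments had at least 3 times their mean share of the other 17 libraries in JHHCGX_148, led by Ighv1-14 at 8.55% and Ighv7-3 at 7.74%, and 4 of them were pseudogenes. Together they took 32.7% in JHHCGX_148, 23.5% in JHHCGC_19, 18.7% in JHHCGX_129 and 9.74% in NCX_134, and 1.32 to 11.9% in the other 14. Over all 127 segments, the Spearman correlations of shares among these 4 libraries were 0.58 to 0.72, and each had the other 3 as its nearest libraries. Between these 4 and the other 14 the correlations were 0.17 to 0.58 with a median of 0.37 (56 pairs). Among the other 14 they were 0.11 to 0.84 with a median of 0.50 (91 pairs). Some pairs outside the 4 were therefore more alike than any pair within it. For the kappa segments the median was 0.66 among the 4 (6 pairs) and 0.69 between the 4 and the other 14, so the kappa shares did not set these libraries apart. Points in these correlations share library depth, and both segment sets and the 4 libraries were picked after the values were seen, so no test is given.

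The 4 libraries came from 3 groups, 1 each from JHHCGC and NCX and 2 from JHHCGX. Their Ighv totals (9.06 to 271 CPM) and mitochondrial shares (5.68 to 18.9%) lay within the range of the other 14. Their Igha share of heavy constant counts did not: it was 22.6, 35.1 and 47.7% in NCX_134, JHHCGX_129 and JHHCGC_19, below the 49.3 to 96.8% of the other 14, and 85.1% in JHHCGX_148. None was a capsule library and none was among those with cartilage transcripts, but JHHCGC_19 and JHHCGX_129 held Sftpc. The part of these differences in the composition was not tested. Groups as a whole were not alike in composition: the median correlation was 0.41 over 18 pairs of libraries of the same group, 0.47 over 27 pairs of the same treatment in different sets and 0.44 over the other 108 pairs.

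Single segments were compared between treatments in edgeR fits over all genes of the table. The filter on low counts left 84 of the 127 segments for set C and 76 for set X, and 99 when all 18 libraries were fitted. The segments that remained were those abundant in at least some libraries, so counts and medians over them describe these segments and not the whole family. Segments of 1 library rise and fall together with its Ighv total, so they are not independent observations. In all 11 comparisons, 0 segments passed an adjusted p of 0.05 by edgeR's quasi-likelihood test with Benjamini-Hochberg adjustment over all genes. The count model DESeq2, run as an alternative, called 0 to 9 segments in a comparison, 19 different segments in all.

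In set C, tea against saline gave 0 called segments and 0 with an unadjusted p under 0.05, where 0% of all genes were called and 3.19% had such a p, and DESeq2 called 0 segments and 0.674% of genes. Tested segments had a median log2 fold of -0.24, against 0.01 over all genes. The smallest p belonged to Ighv1-20, with 0.08, 0 and 0 CPM in NCC and 0.32, 0.29 and 0.06 CPM in JHHCGC (log2 fold 3.00 ± 1.37 SE, adjusted p = 0.9999). The annotated pseudogene Ighv1-21-1 followed, with 0.33, 0 and 0.07 CPM in NCC and 0 in every tea library. Next was Ighv11-2, with 0.49, 0 and 0.07 CPM in NCC and 0.03, 0 and 0 CPM in JHHCGC. The 3 segments had at most 30 counts in any of these 6 libraries.

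Capsule against saline in set C gave 0 called segments, beside 0.11% of all genes, and 6 of 84 with an unadjusted p under 0.05, all higher in capsule, beside 5.75% of genes. DESeq2 called 2 segments, Ighv1-20 and Ighv3-5, and 1.88% of genes. The median log2 fold was 2.14, against 0.05 over all genes, and 78 of 84 tested segments had a positive value. Ighv1-20 stood at 0.96, 1.88 and 0.14 CPM in FFZRC, above all 3 saline libraries (log2 fold 5.12 ± 1.45, adjusted p = 0.432). Ighv2-3 stood at 5.02, 8.0025 and 0.05 CPM against 0.13, 0.30 and 0 CPM, with overlap (4.96 ± 1.76, adjusted p = 0.672). Ighv1-5, one of the segments with counts everywhere, stood at 7.21, 1.83 and 0.12 CPM against 0.55, 0.54 and 0.12 CPM (2.95 ± 1.14, adjusted p = 0.765). In both, FFZRC_24 lay with or below the saline libraries.

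Tea against capsule in set C gave 0 called segments, beside 0.0143% of genes, and 10 with an unadjusted p under 0.05, all lower in tea, beside 5.22% of genes. DESeq2 called Ighv2-3 and Ighv9-1 and 0.75% of genes. Tested segments had a median log2 fold of -2.42, against -0.02 over all genes. Ighv2-3 stood at 0.18, 0 and 0.03 CPM in JHHCGC (log2 fold -5.86 ± 1.85, adjusted p = 0.859). Ighv9-1 stood at 0.04, 0 and 0.06 CPM against 4.58, 5.43 and 0 CPM (-6.32 ± 2.06, adjusted p = 0.871), and Ighv1-54 at 0.29, 0 and 0.06 CPM against 18.8, 13.8 and 0 CPM (-6.41 ± 2.30, adjusted p = 0.919). FFZRC_24 carried 0 or nearly 0 of each, so the groups overlapped.

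In set X, tea against saline gave 0 called segments, beside 0% of genes, and 19 of 76 with an unadjusted p under 0.05, of which 15 were higher in tea, beside 17.1% of genes. DESeq2 called 9 segments and 8.47% of genes. The median log2 fold was 2.33, against -0.06 over all genes. Ighv1-39 stood at 0.07, 0 and 0 CPM in NCX and at 0.30, 0.80 and 0.36 CPM in JHHCGX, without overlap (log2 fold 4.54 ± 1.13, adjusted p = 0.110, the lowest of any segment in any comparison). Its adjusted p was 0.0455 without NCX_124 and 0.000669 by DESeq2. Without NCX_124, 540 of 21746 genes were called, and saline was left with NCX_134 and NCX_147, both of high mitochondrial share. Ighv1-69 stood at 0, 0.09 and 0 CPM in NCX and 0.22, 3.74 and 0.20 CPM in JHHCGX (5.37 ± 1.88, adjusted p = 0.199). Ighv1-19 had no count in any saline library and stood at 0, 3.61 and 0.11 CPM in tea, a mean at least 26.7-fold higher than a floor of 3 counts per library, resting on JHHCGX_148.

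Of the DESeq2 calls in that comparison, Ighv3-1 and Ighv1-19 were at 0 in all saline libraries, and Ighv5-6 and Ighv9-1 at 0 in all tea libraries. Ighv5-6 had 272 counts in NCX_124 and 0 in both NCX_134 and NCX_147, and Ighv3-1 had 157 counts in JHHCGX_148 and 0 in both other tea libraries. These 4 calls therefore rested on a single library each or, for Ighv1-19, mainly on 1. The other 5 were Ighv1-39, Ighv1-42, Ighv1-69, Ighv1-80 and Ighv2-9-1, all higher in tea. Ighv5-6 and Ighv9-1 were among the 25 segments without a count in JHHCGX_148, and Ighv3-1 and Ighv1-42 among the 16 of raised share there. Ighv1-42, Ighv3-1, Ighv5-6, Ighv1-80 and Ighv2-9-1 are named after their values were seen.

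Capsule against saline in set X gave 0 called segments, beside 0% of genes, and 15 with an unadjusted p under 0.05, all higher in capsule, beside 9.64% of genes. DESeq2 called 6 segments (Ighv1-19, Ighv1-39, Ighv1-76, Ighv1-78, Ighv1-81 and Ighv3-1) and 0.726% of genes. Tested segments had a median log2 fold of 2.43, against 0.01 over all genes. Ighv1-39 stood at 3.46, 7.30 and 1.80 CPM in FFZRX, above every saline library of the set (log2 fold 7.52 ± 1.23, adjusted p = 0.517). Ighv1-81 stood at 0.13, 0 and 0.20 CPM in NCX and at 8.54, 12.02 and 3.58 CPM in FFZRX (6.11 ± 1.10, adjusted p = 0.517). Ighv1-78 stood at 0.05, 0 and 0 CPM against 0.91, 1.01 and 0.11 CPM (adjusted p = 0.517). In CPM each capsule library lay above each saline library for all 3 segments. As a share of Ighv counts this did not hold for Ighv1-81, which took 19.2% of the 73 counts of NCX_147 and 4.55 to 9.004% in the capsule libraries. By share it is not shown for Ighv1-39 and Ighv1-78 either. Their 0 in NCX_147 allows up to 4.11%, while FFZRX_238 held 449 counts of Ighv1-39 and 62 of Ighv1-78 among 16248.

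Tea against capsule in set X gave 0 called segments, beside 0% of genes, and 9 with an unadjusted p under 0.05, all lower in tea, beside 5.91% of genes. All of these 9 but Ighv1-39 and Ighv1-81 were among the 25 segments without a count in JHHCGX_148. Those 25 took 1.06% of Ighv counts in JHHCGX_129. DESeq2 called 6 segments (Ighv1-39, Ighv1-59, Ighv1-64, Ighv1-81, Ighv5-6 and Ighv9-1) and 0.91% of genes. Of these, Ighv1-59, Ighv1-64, Ighv5-6 and Ighv9-1 were also among the 25. The part of the composition of these libraries in this comparison was not tested. The median log2 fold was -0.41, against 0.00 over all genes. Ighv1-81 stood at 0.24, 0.74 and 0.53 CPM in JHHCGX, below all 3 capsule libraries (log2 fold -3.84 ± 0.97, adjusted p = 0.538), as did Ighv1-39 (-2.98 ± 0.95, adjusted p = 0.618). Ighv1-64 stood at 0, 0 and 0.04 CPM in tea against 2.73, 5.04 and 0.57 CPM in capsule (adjusted p = 0.60). The 3 comparisons of a set share their libraries, so they are not separate evidence.

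**Figure D5:**
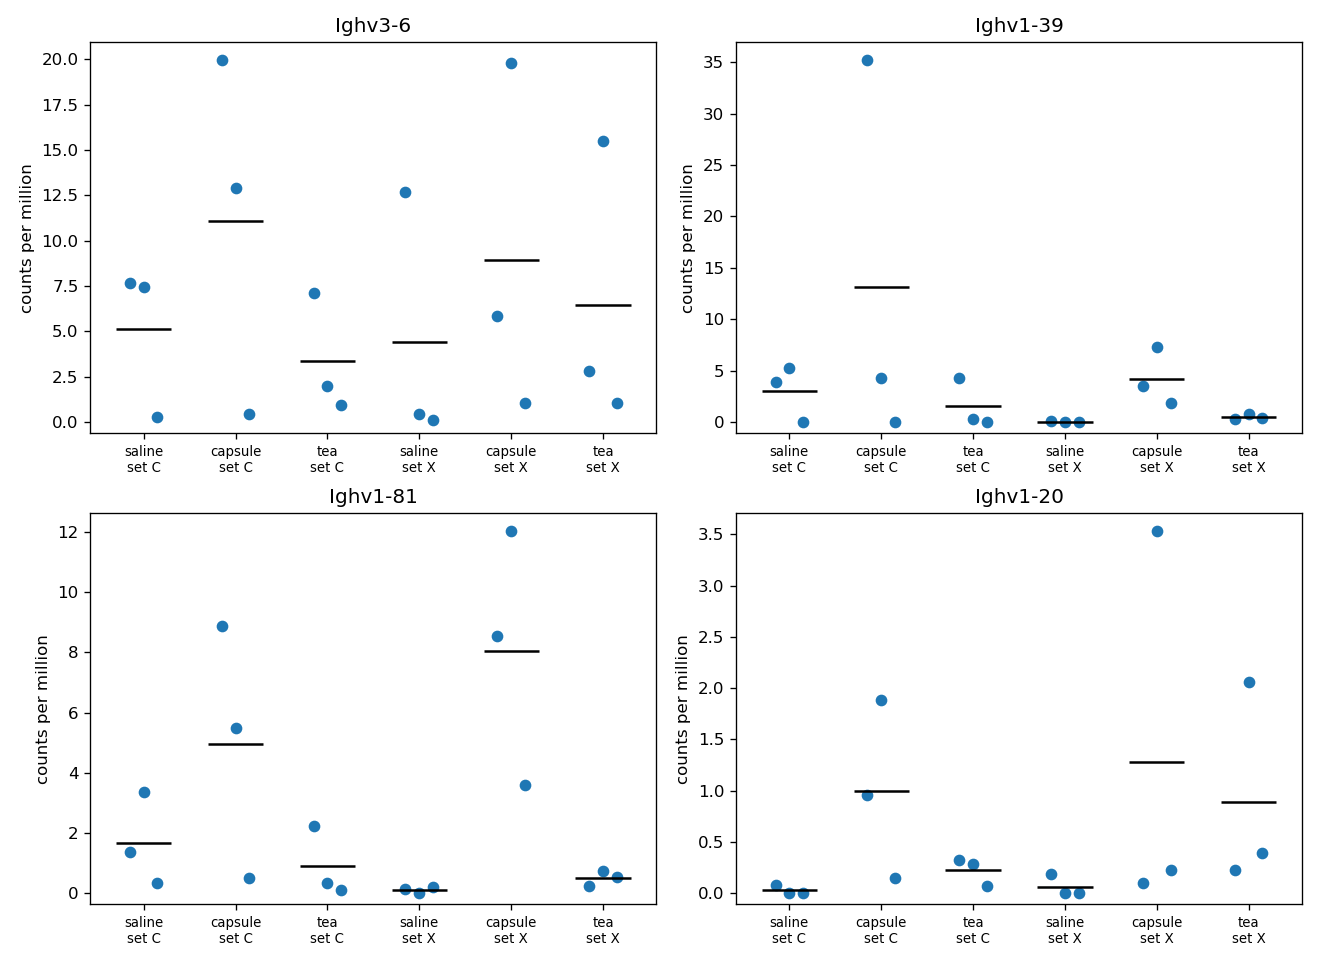
Level in CPM of Ighv3-6, Ighv1-39, Ighv1-81 and Ighv1-20 in every library, by group; points are libraries and bars are means of 3, on linear axes that differ between panels. Ighv1-39 and Ighv1-81 of set X stand at 1.80 to 12.02 CPM in capsule, at 0 to 0.20 CPM in saline and at 0.24 to 0.80 CPM in tea, while in set C their groups overlap.

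Averaged over both sets, tea against saline gave 0 called segments, beside 0.505% of genes, and 10 of 99 with an unadjusted p under 0.05, beside 16% of genes. DESeq2 called 4 segments (Ighv1-20, Ighv3-1, Ighv5-6 and Ighv9-1) and 6.68% of genes. Tested segments had a median log2 fold of 0.90, against -0.04 over all genes. Ighv1-20 stood at 0 to 0.19 CPM in the 6 saline libraries and at 0.06 to 2.06 CPM in the 6 tea libraries (log2 fold 3.50 ± 1.23, adjusted p = 0.174). The annotated pseudogene Ighv1-62 had counts in 1 of 6 saline libraries (NCC_8, 0.24 CPM) and in 4 of 6 tea libraries at 0.31 to 3.75 CPM (6.01 ± 2.19, adjusted p = 0.198). Ighv9-1 had 0.06 CPM at most in tea and up to 3.96 CPM in saline (adjusted p = 0.216). Ighv5-6 and Ighv9-1 were among the 25 segments without a count in JHHCGX_148, and Ighv1-62 and Ighv3-1 among the 16 of raised share there.

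Averaged over both sets, capsule against saline gave 0 called segments, beside 0.00447% of genes, although 32 of 99 had an unadjusted p under 0.05, all higher in capsule, beside 9.4% of genes. DESeq2 called 6 segments (Ighv1-19, Ighv1-20, Ighv1-61, Ighv1-81, Ighv3-1 and Ighv3-5) and 0.681% of genes. The median log2 fold was 2.40, against 0.00 over all genes, and 95 of 99 tested segments had a positive value. Ighv1-81 stood at 0 to 3.34 CPM in saline and 0.49 to 12.02 CPM in capsule (log2 fold 3.87 ± 0.87, adjusted p = 0.485). Ighv3-5 had counts in 1 of 6 saline libraries, at 0.02 CPM, and in 5 of 6 capsule libraries at 0.12 to 1.72 CPM (adjusted p = 0.485). Ighv1-20 had a log2 fold of 4.79 ± 1.28 (adjusted p = 0.485).

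Beside these segments, the tested constant genes and Jchain also had positive log2 folds in the averaged capsule comparison, with wide errors, and none was called. The heavy constant genes ran from 0.55 ± 1.09 for Ighg1 (adjusted p = 0.914) to 2.49 ± 1.04 for Ighg2c (adjusted p = 0.511). Ighg2b had a log2 fold of 1.92 ± 1.03 (adjusted p = 0.561). Igha had a log2 fold of 1.07 ± 1.12 (adjusted p = 0.801), Igkc 1.03 ± 1.02 (adjusted p = 0.788) and Jchain 0.69 ± 1.04 (adjusted p = 0.878). The difference between these folds and those of the segments was not tested.

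Set X against set C, averaged over treatments, gave 0 called segments, beside 0.0402% of genes, and 8 with an unadjusted p under 0.05, all lower in set X, beside 7.15% of genes. DESeq2 called Ighv1-75 and Ighv5-6 and 0.674% of genes. Tested segments had a median log2 fold of -0.15, against -0.01 over all genes. Ighv1-39 had a log2 fold of -3.35 ± 1.18 (adjusted p = 0.618) and Ighv1-76 of -3.14 ± 1.09 (adjusted p = 0.618). Ighv1-75 had counts in 5 of 9 libraries of set C, up to 5.04 CPM in NCC_8, and in 2 of 9 of set X, up to 0.62 CPM in FFZRX_238 (adjusted p = 0.618).

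Whether a treatment acted differently in the sets was tested as an interaction. For tea, 0 segments were called, beside 0% of genes, and 8 had an unadjusted p under 0.05, beside 6.01% of genes, while DESeq2 called Ighv3-1, Ighv5-6 and Ighv9-1 and 0.49% of genes. The median difference of log2 folds was 2.40, against -0.07 over all genes. The smallest p belonged to Ighv1-19 (adjusted p = 0.704), Ighv10-3 and Ighv1-21-1 (both adjusted p = 0.768). Ighv10-3 stood at 1.92, 0.20 and 0 CPM in NCC, 0.20, 0 and 0.06 CPM in JHHCGC, 0.03, 0 and 0 CPM in NCX and 0.17, 0.53 and 0 CPM in JHHCGX.

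For the capsule, 0 segments were called, beside 0.0134% of genes, and 7 had an unadjusted p under 0.05, beside 6.73% of genes. DESeq2 called Ighv1-76 and Ighv3-1 and 0.58% of genes. The median difference was -0.02, against -0.04 over all genes. Ighv1-76 stood at 1.38, 0.89 and 0.14 CPM in NCC and 0.45, 0.46 and 0.27 CPM in FFZRC, then at 0 in NCX and 0.89, 2.24 and 0.13 CPM in FFZRX (adjusted p = 0.529). For Ighv1-81 the capsule fold was larger in set X than in set C by 4.48 ± 1.64 on the log2 scale (adjusted p = 0.632). The pseudogene Ighv1-73 had at most 0.21 CPM in any library (adjusted p = 0.646).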

How the data were processed

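Poly(A) RNA of 18 colon samples was sequenced. Per the file headers, the authors deposited whole-number read counts and FPKM values for each gene and library in 1 table. The submitters' processing notes name StringTie 1.3.4d, HISAT2 2.0.4, edgeR and cutadapt 1.9 without their roles. Those notes list a human build, but all 127 Ighv identifiers and coordinates matched mouse GENCODE M21 (GRCm38). For Ighv genes the deposited FPKM was not an exact rescaling of the counts: the length it implied varied between libraries by a median of 1.11-fold. Strand use and the handling of reads with several matches are not given in the sources used here.

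CPM was computed from all counts of a library (59206980 to 76830278). Tests used edgeR 4.0.16 (R 4.3.3) with TMM scaling, filterByExpr (minimum count 10), the quasi-likelihood test and Benjamini-Hochberg adjustment over all genes at 0.05. Each set was fitted alone (9 libraries, 20964 and 20889 genes), and all 18 libraries together (22380 genes) for the averaged effects, the set effect and the interactions. The standard error is the log2 fold over the square root of F, so it adds nothing to the test. The fits were tested on simulated data with a smaller spread between libraries than these data, so that test does not show how they perform at the spread seen here. DESeq2 1.42.0 and other settings were alternatives. Totals, segment numbers and shares carry no p, since they summarise chosen members. Intervals are 95% Wilson intervals. A segment at 0 allows up to 3 counts.

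Members and lists were chosen with earlier results of these data known. Segments named by rule are the 10 of highest mean CPM, the leading segment of each library and the 3 of smallest p in each comparison. Segments called by DESeq2 alone, and those of the composition pattern, were named after their values were seen.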

Additional observations from a re-analysis of the deposited data

How the results depend on the processing

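Of 33 segment results in the comparisons, 606 of 627 recomputed values kept direction and side of the threshold, 20 passed it in 19 results, and 1 reversed. That was Ighv10-3 in the tea interaction, at -0.85 without the 4 libraries apart in composition, a setting chosen after seeing the data. DESeq2 called 2 segments for capsule against saline and 2 for tea against capsule in set C, and 9, 6 and 6 for tea against saline, capsule against saline and tea against capsule in set X. It called 4 and 6 for the averaged tea and capsule effects, 2 for set X against set C, and 3 and 2 for the tea and capsule interactions. Other scaling, no filter, and all libraries in 1 fit left 0 calls in each comparison in which they were run. Leaving out 1 library gave 0 to 1 for tea against saline in set X and 0 in the other 10 comparisons. The 1 call came without NCX_124, where 540 of 21746 genes were called.

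Leaving out 1 library gave log2 ratios of totals from -0.54 to 4.42 (tea against saline), 0.93 to 4.76 (capsule against saline) and -2.38 to 0.57 (tea against capsule) in set X. Without the 4 libraries apart in composition these ratios were -1.32 for tea against saline and -2.70 for tea against capsule, with JHHCGX_256 as the only tea library left. Without the 5 libraries with cartilage transcripts they were 4.42 for tea and 4.91 for capsule against saline. These settings, and leaving out 6 libraries of high mitochondrial share, were chosen after seeing the data. 0 segments were called in the comparisons that could be fitted, which were all 11 without the 4 or the 6 libraries and 4 without the 5, where saline of set C has no library left. The median segment number was 34.1 after thinning to 73 counts, by construction fewer than 78.5. The cause of the other changes was not tested. No paired analysis was possible because the libraries of different groups share no replicate numbers. In libraries with few Ighv counts, down to 73, single segments are hardly resolved.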

Other observations

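Genes of developing B cells, among them those that recombine antibody segments, were scarce. The sum of Rag1, Rag2, Dntt, Vpreb1 and Igll1 was 0.11 to 0.83 CPM in 16 libraries and 3.70 CPM in FFZRC_5 and 4.08 CPM in FFZRC_12, the libraries with the highest Ighv totals. Dntt, the enzyme that adds bases at the joints, was at 0 in all libraries but these.

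FFZRX_238 held the most RNA of the IgG constant genes, at 219 CPM against 0.51 to 116 CPM in the other libraries.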
